A study of Mus musculus with 6 samples.

Results

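Genes with almost no reads in control Purkinje cells and reads in every Rbm17 conditional knockout (cKO) library are described here. A gene was taken when its counts summed to 10 or fewer over the 3 control libraries and reached 10 or more in each of the 3 cKO libraries. Mx1 and Mmp12 met these thresholds and were left out, which gave 82 members of the 23420 genes counted. The count rule was met by 0.359% of all those genes. The members were selected on this very contrast, so their fold changes and their calls in the gene test carry no weight as evidence and are given as a description.

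The libraries hold ribosome-bound RNA from cerebellar Purkinje neurons of C57BL/6 mice at 4 weeks of age. It was obtained by BacTRAP, in which tagged ribosomes made under the Purkinje cell gene Pcp2 are pulled down together with their RNA, from 1 cerebellum for each library. The 3 control animals were Pcp2-BacTrap; Rbm17 f/+ and carried no Cre, and the 3 cKO animals were Pcp2-BacTRAP; Pcp2-Cre; Rbm17 f/-. Every animal therefore carried the tagged ribosome, whereas Cre and the null allele occurred in cKO only, and their parts in a difference cannot be told apart.

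RBM17 is a splicing factor that helps the spliceosome to choose a 3′ splice site, and the title of the series names cryptic splicing after its loss. A gene can gain reads because its own promoter starts a spliced transcript, or because RNA polymerase or the spliceosome runs on from the gene before it, so that an exon of the first gene is joined to an exon of the next. Reads that span a splice junction separate these forms only in part. A junction from another gene is what a chimeric transcript would leave, though joins between genes of like sequence are less certain. A junction inside the gene marks spliced RNA of that gene, which can belong to either form. Reads from a neighbour that are not spliced leave no junction and are not seen by this measure.

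The sequences of 8 such joins are shown first, because they let a reader see an upstream gene's exon joined to a member. They are those with an annotated splice site on both sides, 1 per member, and leave out the join with the most reads, Lars to Plac8l1, which is described below by its values. Each run holds the last 15 bases of the upstream gene's exon in lower case and the first 15 bases of the member's exon in capitals, 5′ to 3′, put together from the GENCODE M21 transcripts (mm10). They are reference sequences at the joined splice sites, each named with the reads that crossed the junction in cKO.
Sult4a1 to Efcab6, 31 reads: tgcctgtgggtcgggAATTCACAAATTTGC
Isca1 to Spata31d1a, 30 reads: aagttattcaagatgCGGCAGAACAGCATC
Psmg3 to Tmem184a, 15 reads: ctcgggcaggacgagATGAGGAATGCGTCA
Tvp23b to Cdrt4, 13 reads: cgagtgaagtggctgCAAGACTCACGGAAA
Zfp329 to Vmn2r54, 12 reads: agaggattcacacagCTGCTCCATGCCCTC
Mgat1 to Olfr1393, 10 reads: gcagtggttcttcagGACACTGTGCTGATC
Snap47 to Prss38, 10 reads: cagagaggcatgcagGCGAAACCGGGAACG
Rgs7bp to Fam159b, 4 reads: ggctgccatctcaggTATTGGTGCTCTGGT
All 8 joins use an annotated splice site on both sides and none had a read in control. The reads are totals over the 3 cKO libraries. Psmg3 to Tmem184a (8, 7 and 0) and Mgat1 to Olfr1393 (0, 6 and 4) were seen in 2 of them. Each of the other joins listed came from 1 cKO library. All were picked by their cKO reads, which favours low control values.

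The mature microRNAs of the microRNA members are shown because 2 of these members sit side by side and share a seed. The seed, bases 2 to 8, is in capitals, and the sequences are from RefSeq (GRCm38.p6).
miR-181a-5p: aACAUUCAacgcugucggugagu
miR-181b-5p: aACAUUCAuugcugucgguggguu
miR-9-5p: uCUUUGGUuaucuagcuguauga
miR-339-5p: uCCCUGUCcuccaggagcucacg
miR-3081-5p: gACUGGAGcuuggagcggugagc
The first pair has the seed ACAUUCA, and the other 3 seeds differ from it and from each other. The libraries measure reads over the hairpin locus and not the mature microRNA.

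Gene counts summed to between 140110897 and 149552228 in control and between 145234116 and 160571518 in cKO. Rbm17 stood at 41.1, 42.5 and 41.3 CPM (counts scaled to TMM library sizes) in control and at 25.7, 25.5 and 26.3 CPM in cKO, with no overlap. Summed over 22 Purkinje cell markers, the level was 48276.9, 39238.7 and 36092.8 CPM in control and 23053.3, 24723.2 and 26199.1 CPM in cKO, and 12 of the 22 fell (edgeR, adjusted p under 0.05; 3.85% of 16067 genes tested were called down). In such bulk samples fewer cells of a type and less RNA per cell cannot be told apart. The animals were separate, and amplified reads are not independent molecules, so counting errors below cover counting only.

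The 82 members were low throughout. Together they had 117, 108 and 126 counts in the 3 control libraries, against 4751, 2732 and 3586 in cKO. The mean level in cKO ran from 0.0837 to 0.923 CPM with a median of 0.235 CPM. In raw counts the cKO mean of a member ran from 13 to 147 with a median of 37.5. The gene count in control was 0 for 16 members, among them Ucp1, Spata31d1a, Colec10, Cyp3a57, Gm5077, Il1rn, Clec12a, Olfr70, Mir181a-1, Mir181b-1 and Mir339. Gm5077 still had 2 spliced reads on its own annotated introns in control. Of the members, 77 passed the count filter of the gene test and 42 were called up, where 4.03% of 16067 genes tested were called up, but the rule fixed that direction.

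**Figure D1:**
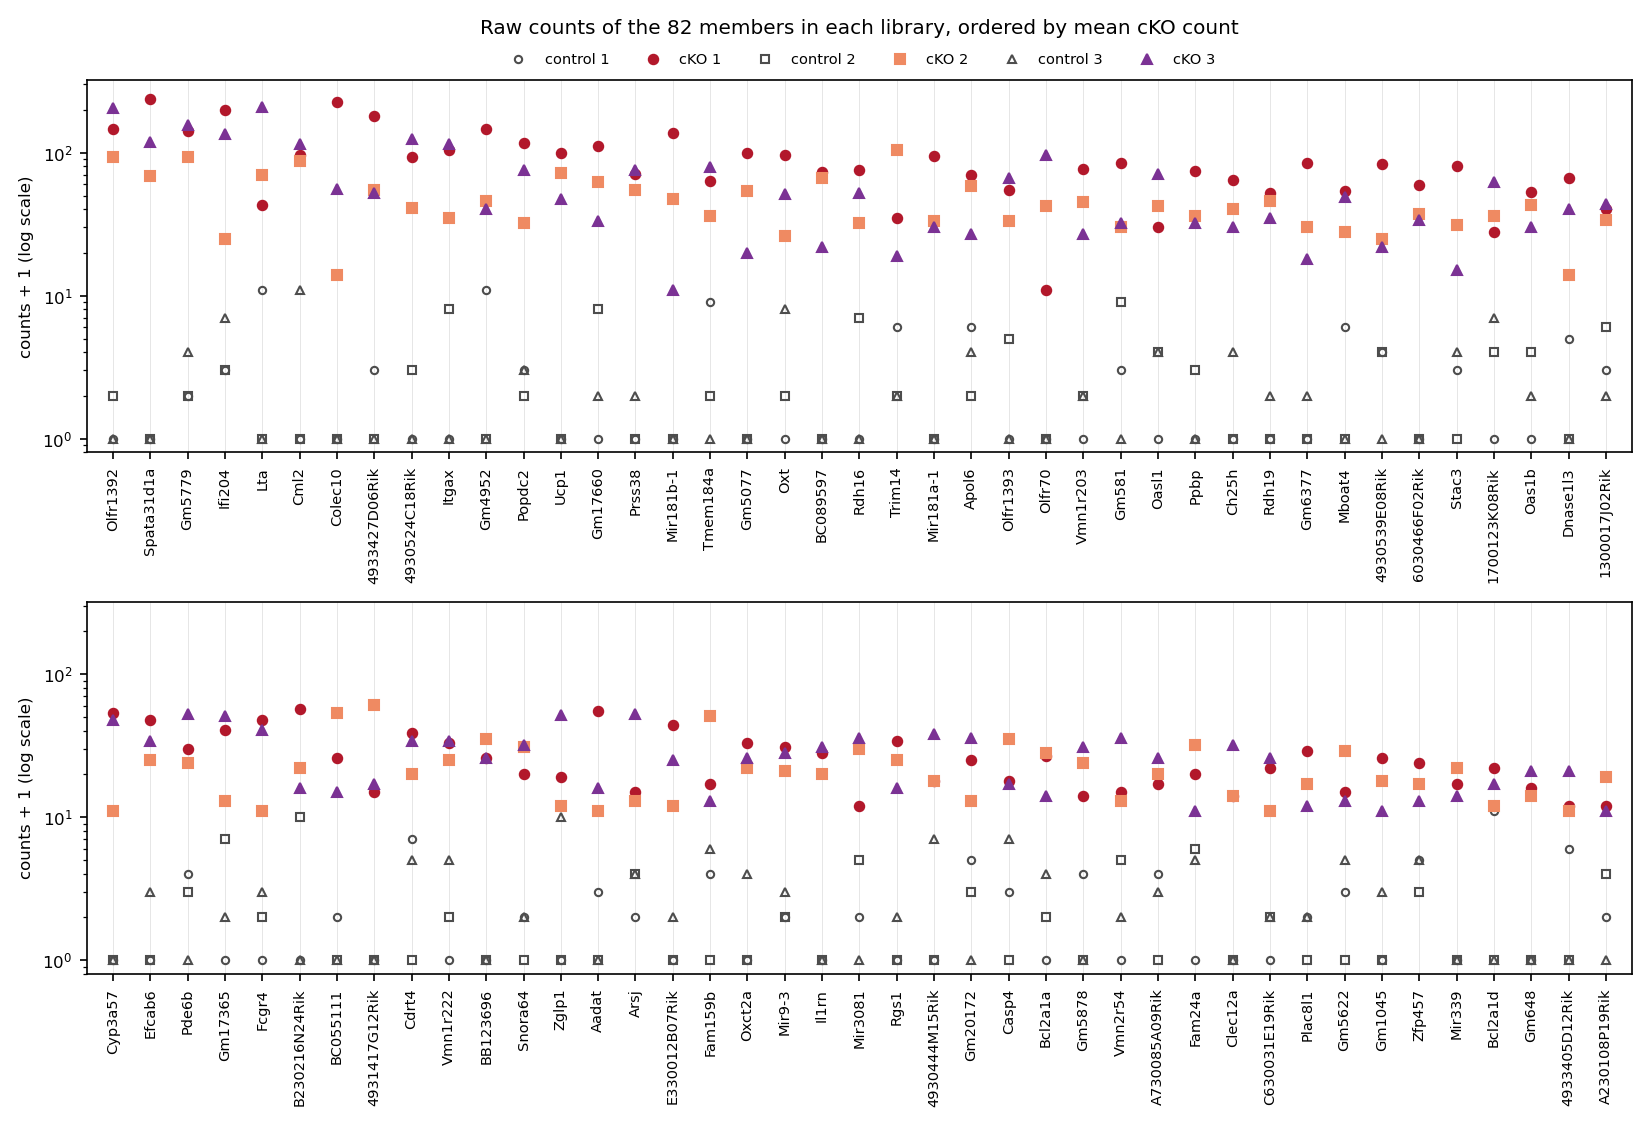
Raw counts plus 1 (log axis) of the 82 members in each library, ordered by mean cKO count over 2 panels; open grey symbols are the 3 control libraries and filled coloured symbols the 3 cKO libraries. Every cKO point lies at 10 or more counts because the rule requires it, and the 3 cKO libraries of a member often lie far apart.

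By gene class, 53 members were protein-coding genes other than chemosensory receptors (0.280% of the 18905 such rows). Long non-coding RNAs gave 13 members (0.854% of 1522 rows) and microRNAs gave 5 (0.778% of 643). Olfactory receptors, the odorant receptors of the nose, gave 3 of 1111 rows, and vomeronasal receptors, which detect pheromones, gave 3 of 335. The remaining placed members were 2 pseudogenes and 1 small nucleolar RNA, Snora64. BC055111 and BC089597 could not be placed on the annotation and have no class and no junction values.

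Levels of different genes are compared per kilobase of exon. On that scale the members ran from 0.0216 to 5.02 CPM per kb with a median of 0.115. The 6 highest were the short RNA loci Mir181b-1 (5.02), Mir181a-1 (3.71), Mir3081 (1.90), Mir9-3 (1.80), Snora64 (1.27) and Mir339 (1.11 CPM per kb). Among members with at least 200 bp of exon the highest were Gm17660 at 0.761, the hormone gene Oxt at 0.659, Gm5779 at 0.553 and the lymphotoxin gene Lta at 0.481 CPM per kb.

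The 3 cKO libraries differed widely from each other at these genes. The coefficient of variation (CV, the SD as a share of the mean CPM) had a median of 45.9% and ran from 8.30% to 114.1%, while Poisson counting alone would give a median of 16.3%. For 38 members the CV was more than 3 times the Poisson value. The highest cKO library was cKO 1 for 41 members, cKO 3 for 29 and cKO 2 for 12. The lowest was cKO 2 for 37 and cKO 3 for 34.

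Colec10, a collectin of innate immunity, had the widest spread, with 225, 13 and 55 counts in cKO and 0 in every control library. Mir181b-1 had 135, 46 and 10 counts, and the antiviral gene Trim14 had 34, 104 and 18. Trim14 shares its locus with Nans on the other strand, where 4009 junction reads lay, so reads of the pair cannot be told apart in double-stranded cDNA. At the other end 1300017J02Rik had 39, 33 and 43 counts, Cml2 95, 86 and 113 and Prss38 70, 54 and 74. These last members varied by about as much as counting error or less, whereas Colec10 and Mir181b-1 each owed most of their mean to cKO 1.

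**Figure D2:**
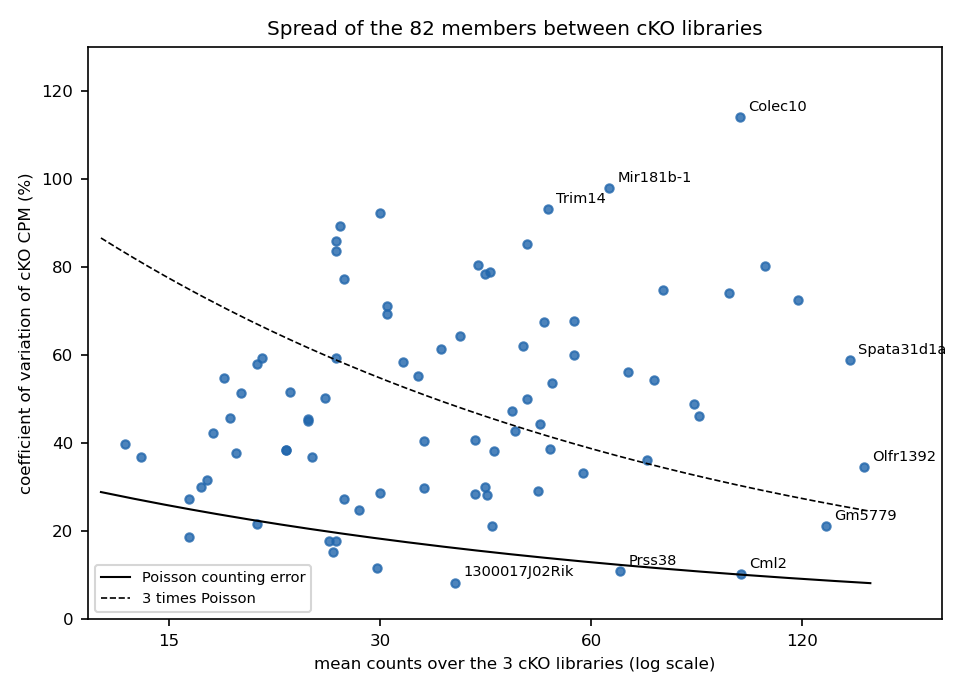
Coefficient of variation of CPM over the 3 cKO libraries (%) against mean cKO counts (log axis) for the 82 members; the solid line is Poisson counting error and the dashed line 3 times that error. Colec10 stands highest at 114.1%, and 1300017J02Rik, Prss38 and Cml2 lie near or below the solid line.

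Genes with very similar counts lay on both sides of the thresholds. Just inside it, Apol6 had 9 control counts and 69, 57 and 26 in cKO, and B230216N24Rik had 9 control counts, all in control 2, and 56, 21 and 15 in cKO. Just outside it, C130080G10Rik had 11 control counts, all in control 1, and 50, 13 and 14 in cKO, and Cd4 had 12 control counts and 22, 30 and 45 in cKO. On the cKO side, Aadat was taken with 54, 10 and 15 counts, while Cd8b1, with 46, 8 and 15, was not. With control and cKO exchanged, the same thresholds were met by 8 genes, among them Ankrd2, Aurkc, Tdrd9 and Tspan8.

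Spliced reads on a member's own introns were found in more members than joins to another gene. Of the 80 placed members 71 have an annotated intron, and 58 of them had at least 3 cKO reads on their own annotated introns. For 38 of the 58 such reads were found in every cKO library, and for 5 they came from 1 library only. Every annotated intron carried reads in 12 members, among them Ucp1, Oxt, Ifi204, Ppbp and Lta. At the same time, 19 members were joined by at least 3 reads of 1 junction to another gene on the same strand. Of these 15 had own-intron reads too and 4 had none (Cdrt4, Gm5878, Mir181a-1 and Oxct2a). Mir181a-1 and Oxct2a have no annotated intron, so they could have no such read. Oxct2a had 9 joining reads in control and 7 in cKO. At these cuts 43 members had own-intron reads without a join, although 9 of the 43 had some joining reads below the cut, and 18 had neither kind.

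The number of spliced reads for a given count was lower in the members than in other genes. Own-intron reads per 100 counts had a median of 23.3 in the 71 members with introns, with quartiles of 5.71 and 59.8. The median was 38.1 in 2611 other genes with introns whose cKO counts fell in the same range, and 51.6 in 12777 genes with higher counts. At least 3 own-intron reads were found in 81.7% of the members and in 85.6% of the 2611 genes. Joins to another gene, counted in 1 way for both sets, were found in 17 of the placed members (21.3%) and in 229 of 2800 genes with like counts (8.18%). These are descriptions without a test, since the members were selected on counts of the same libraries.

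**Figure D3:**
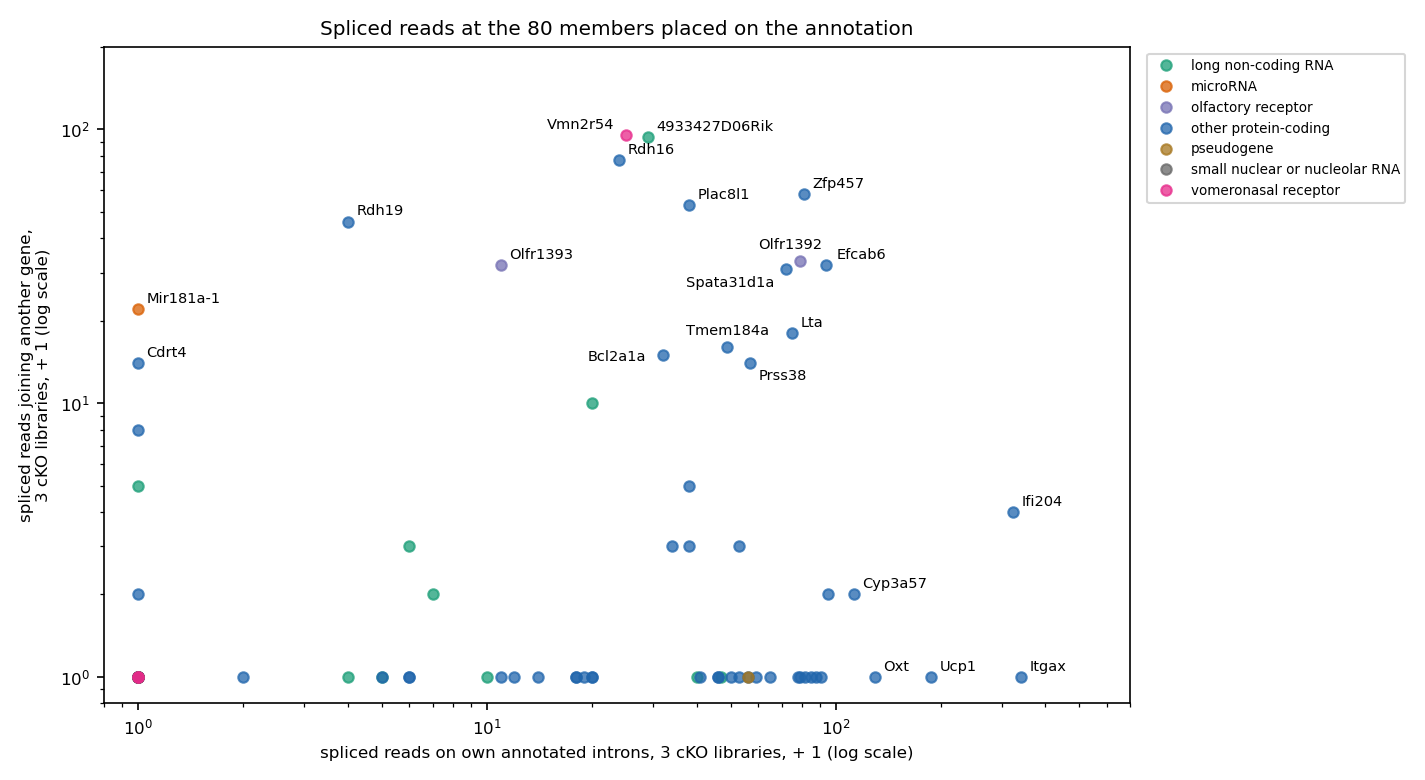
Reads over the 3 cKO libraries on a member's own annotated introns (x axis) and on junctions to another gene of the same strand (y axis), each plus 1 on a log axis, for the 80 placed members, coloured by gene class; points at the lower left overlap. Itgax, Ifi204, Ucp1 and Oxt lie far to the right with 0 to 3 joining reads, and Vmn2r54, 4933427D06Rik, Rdh16 and Rdh19 lie high on the y axis with fewer reads on their own introns.

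Genes of the immune and interferon response held both members with the most own-intron reads, Itgax and Ifi204. Sorted by known function after their values were seen, 18 members belong here. All 17 of them that have introns had at least 3 own-intron reads in cKO, where 81.7% of all members with introns did. Itgax, which encodes the CD11c integrin chain of dendritic cells and activated microglia, had 0, 7 and 0 counts in control and 104, 34 and 114 in cKO. Its own introns carried 109, 44 and 187 reads in cKO, on 25 of 30 introns, against 16 in control. It lies at chr7:128129547-128150657 on the plus strand. Ifi204, an interferon-induced DNA sensor of the HIN-200 family, had 2, 2 and 6 counts in control and 197, 24 and 134 in cKO. All 8 of its introns were read, by 128, 25 and 169 reads in cKO and 4 in control. Both genes were lowest in cKO 2 and lay above every control library in each cKO library, as the rule requires.

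The antiviral oligoadenylate synthetase genes were represented by Oas1b and Oasl1. Oas1b, which GENCODE lists among pseudogenes in this reference strain, had 0, 3 and 1 counts in control and 52, 42 and 29 in cKO, with 15, 32 and 8 own-intron reads. Oasl1 had 0, 3 and 3 counts in control and 29, 41 and 70 in cKO, with 16, 7 and 17 own-intron reads. Their order over the cKO libraries was opposite, Oas1b being highest in cKO 1 and Oasl1 in cKO 3. Ch25h, the cholesterol 25-hydroxylase of activated macrophages, has no intron and therefore no junction test. It had 0, 0 and 3 counts in control and 63, 39 and 29 in cKO.

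Smaller immune members were spliced too. Ppbp, the platelet chemokine CXCL7, had 73, 35 and 31 counts and 50, 16 and 15 own-intron reads in cKO, with 2 counts and 0 such reads in control. Rgs1, a brake on G protein signalling in leukocytes, had 33, 24 and 15 counts and 20, 22 and 7 own-intron reads, with 1 control count. Il1rn, the interleukin 1 receptor antagonist, had 27, 19 and 30 counts, 0 in control, and 4, 0 and 15 own-intron reads. Casp4, an inflammatory caspase, had 15, 30 and 7 own-intron reads in cKO but 8 in control as well, against 8 control counts. Bcl2a1a and Bcl2a1d are near-identical anti-apoptotic genes, and how reads with several alignments were handled is not given in the sources used here, and their values are uncertain for that reason.

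These immune members stood among markers of other cells that also differed between the groups. Of 20 microglia markers 8 rose and 0 fell, where 4.03% of 16067 genes tested rose and 3.85% fell. The median log2 fold change of the 20 markers was 0.88. Their summed level was 78.3, 96.4 and 114.6 CPM in control and 239.7, 139.7 and 164.6 CPM in cKO. Tyrobp, a signalling adaptor of microglia, stood at 0.336, 0.876 and 1.13 CPM in control and at 8.82, 4.52 and 5.06 CPM in cKO, which is 2.97 higher on the log2 scale (SE 0.44; adjusted p = 0.0030, edgeR). Tyrobp had the largest change of the 20. Other microglia markers changed little and were not called, among them P2ry12 (log2 change -0.02), Tmem119 (-0.10), P2ry13 (0.12) and Siglech (0.22). No microglia marker was at 0 in all libraries. Of 28 tested markers of activated phagocytes that are not members, 6 rose (Cd68, Lpl, Cst7, Clec7a, Ccl3 and Cxcl10) and 0 fell. Of 24 tested interferon response genes that are not members, 5 rose (Ifit2, Oasl2, Irf9, Ddx58 and Cxcl10) and 0 fell, with a median log2 fold change of 1.13 against 0.0063 over all genes tested. Cxcl10 is on both lists. None of 7 tested lymphocyte and neutrophil markers was called, and their summed level was 1.06 to 2.71 CPM in control and 2.08 to 2.34 CPM in cKO. The part of other cells in the members' reads was not tested.

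Genes of metabolism were headed by Ucp1, the uncoupling protein that lets brown fat mitochondria make heat. Ucp1 (chr8:83290352-83298452, plus strand) had 0 counts in each control library and 99, 71 and 46 in cKO. Against a floor of 3 counts over the control group this is at least 63.1-fold higher. All 5 of its annotated introns carried reads in every cKO library, 80, 61 and 46 in all, and none had a read in control. In cKO 1 another 7 reads ran from an unannotated donor site upstream into the first exon, over 2 junctions of 4 and 3 reads. The nearest upstream gene on the strand, Tbc1d9, ends 17418 bp away and stood at 186.1 CPM in control and 187.0 CPM in cKO. Of 6 other tested brown fat genes none was called, at a median log2 fold change of 0.44. Ppargc1a, the coactivator that drives thermogenic genes, stood at 198.8 CPM ± 32.6 in control and 190.6 CPM ± 5.6 in cKO (SD, n = 3).

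The other enzymes differed in their splicing. Cyp3a57, a cytochrome P450 of the liver type, had 0 counts in control, 53, 10 and 47 in cKO, and 46, 7 and 59 own-intron reads on 9 of 13 introns. Aadat, an aminotransferase of lysine and kynurenine breakdown, had 2 control counts, 54, 10 and 15 in cKO, and 65, 13 and 9 own-intron reads. Cml2 had 95, 86 and 113 counts in cKO but only 4, 5 and 8 own-intron reads, and its 10 control counts all lay in control 3. Mboat4, the acyltransferase that activates ghrelin, had 53, 27 and 48 counts and no read on its own introns. The first genes thus had about as many spliced reads as counts, and Cml2 and Mboat4 had few or none.

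Rdh16 and Rdh19, retinol dehydrogenases, lie 3363 bp apart on chromosome 10 downstream of Rdh9, and all 3 were linked by splicing. Rdh16 had 0, 6 and 0 counts in control and 75, 31 and 51 in cKO. Rdh19 had 0, 0 and 1 in control and 51, 45 and 34 in cKO. An annotated donor of Rdh9 was joined to an annotated acceptor of Rdh16 by 15, 1 and 2 reads in cKO, and Rdh16 to Rdh19 by 6, 7 and 0, with no read in control. The same Rdh16 acceptor was joined to an annotated donor of Zbtb39 by 6, 0 and 3 reads in control and 0, 0 and 2 in cKO. Over all its joins Rdh16 had 11 reads in control and 76 in cKO. Rdh19 had only 3 reads on its own intron and 45 on joins. Rdh9 itself rose from 1.11 CPM ± 0.29 to 2.52 CPM ± 0.46 (SD, n = 3), or by 1.19 on the log2 scale (SE 0.32; adjusted p = 0.0499, edgeR). Members of a gene family resemble each other in sequence, so joins within it are less certain than joins between unrelated genes.

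Other tissue-restricted genes had their own splicing. Oxt, which encodes the hormone oxytocin, had 0, 1 and 7 counts in control and 95, 25 and 50 in cKO, with 78, 14 and 37 reads on both of its introns and 4 in control. Pde6b, the rod photoreceptor phosphodiesterase, was read on 18 of 21 introns, by 40, 0 and 44 reads in cKO and 9 in control. Popdc2, a membrane protein of heart and skeletal muscle, had 27, 7 and 18 own-intron reads. Stac3, a part of muscle excitation-contraction coupling, had 44, 20 and 0. Gm581 (now Gfy) had 84, 29 and 31 counts and 59, 24 and 11 own-intron reads. In Gm17660, 8 of 10 introns were read, by 13, 63 and 14 reads in cKO. In control its introns carried 23 reads, although only 8 control counts were given to the gene.

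Silent is thus a statement about gene counts. In 16 members at least 3 own-intron reads were found in control, with 64 in Zfp457, 23 in Gm17660, 16 in Itgax, 11 in Bcl2a1d and 10 in Tmem184a. Zfp457, a zinc finger gene in a cluster of like genes, had 10 control counts and 31, 28 and 21 own-intron reads in cKO, more reads than its 23, 16 and 12 counts. Its joins to Zfp458, Zfp874b, Zfp65 and Zfp953 all stayed within that family, and its joining reads were nearly as many in control, 41 against 57 in cKO. How its reads were shared among copies is not given in the sources used here.

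Joins from an upstream gene of another family were found for 14 members. In Mir181a-1 the upstream gene is its host transcript, which contains it. For the other 13 there were 25 junctions, 12 of them with an annotated splice site on both sides and 23 with one in the upstream gene. Among the 13 is Bcl2a1a, through a junction of 2, 1 and 0 cKO reads from Gm10634 with neither site annotated. Its upstream end lies within Bcl2a1d, a near-identical gene on the other strand, so this join is uncertain. Over all 55 joining junctions of the members, family joins included, 36 were seen in 1 cKO library, 16 in 2 and 3 in all 3, and 49 had 0 reads in control. These 55 were kept for at least 3 cKO reads, which favours low control values. With the cut set on control reads instead, 4 joining junctions had at least 3, and 2 of these had under 3 in cKO. Most single joins thus rest on 1 animal.

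The join from Lars, a leucyl-tRNA synthetase gene, to Plac8l1 was seen in every cKO library. It had 20, 11 and 10 reads in cKO and none in control, and took 6.78% of the 605 reads that left the same Lars donor in cKO. A second junction from that donor to Plac8l1 had 1, 10 and 0 reads in cKO and 2 in control. Plac8l1 had 1, 0 and 1 counts in control and 28, 16 and 11 in cKO, and 12, 17 and 8 reads on its own introns. Of these intron reads, 5, 17 and 8 lay on the intron right after the exon that the first junction joined to Lars. Lars ends 5589 bp before Plac8l1 and did not pass the test (24.4 CPM ± 4.4 in control, 21.5 CPM ± 2.2 in cKO; log2 change -0.18 ± 0.14 SE; adjusted p = 0.53, edgeR).

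Spata31d1a, a gene of sperm development, was among the members with the most counts, with 0 in each control library and 236, 68 and 117 in cKO (at least 121.0-fold above a floor of 3 counts over the control group). An exon of Isca1, which encodes an iron-sulfur cluster assembly protein, was joined to it by 30 reads in cKO 1 and by none in cKO 2, cKO 3 or control. This junction is chr13:59705089-59758889 on the minus strand and took 0.346% of the reads from its donor. Own introns of Spata31d1a carried 50, 0 and 21 reads, of which 38, 0 and 9 lay on the intron right after the exon joined to Isca1. Isca1 stood at 210.2 CPM ± 9.7 in control and 212.3 CPM ± 22.6 in cKO. Spata31d1d, a gene of the same family 15595 bp upstream, had 2, 1 and 8 counts in control, just over the threshold, and 101, 76 and 53 in cKO.

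4933427D06Rik, a long non-coding RNA, was joined to Tpra1 by 9 junctions with 93 reads. The 2 strongest were the junction with 10, 15 and 0 reads (chr6:88902531-89000369) and another with 0, 0 and 24 (chr6:88908073-88998490). Both start at annotated donors of Tpra1 and end at sites that are not annotated. The RNA had 2, 0 and 0 counts in control and 178, 54 and 51 in cKO, and 23, 4 and 1 reads on its own introns. Unannotated junctions inside it carried 67, 6 and 79 reads in cKO and 8 in control. Tpra1, which encodes a membrane receptor-like protein, was at 17.98 CPM ± 2.11 in control and 18.06 CPM ± 2.34 in cKO.

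Other joins were seen in 1 or 2 cKO libraries. Efcab6, an EF-hand gene, was joined to the brain sulfotransferase gene Sult4a1 by 31 reads in cKO 3 only, and had 52, 21 and 20 reads over 25 of its 40 own introns. Lta, a cytokine of lymphocytes, was joined to Nfkbil1 by 14, 0 and 3 reads in cKO and 2 in control, which made up 17.9% of the donor's reads in cKO and 2.41% in control. Lta had 10, 0 and 0 counts in control, 42, 69 and 207 in cKO, and 32, 25 and 17 own-intron reads, so the library with the most counts had the fewest own-intron reads. Tmem184a was joined to Psmg3, a proteasome assembly gene, by 8, 7 and 0 reads. Prss38, a serine protease gene, was joined to the SNARE gene Snap47 by 10 reads in cKO 1. Cdrt4 was joined to Tvp23b by 13 reads in cKO 1 and had no read on its own annotated intron. The same acceptor was joined to an unannotated donor inside Cdrt4 by 0, 1 and 10 reads. Another 19 reads in cKO ran from Cdrt4 to no annotated gene, and the strongest such junction had 14 in cKO and 6 in control.

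**Figure D4:**
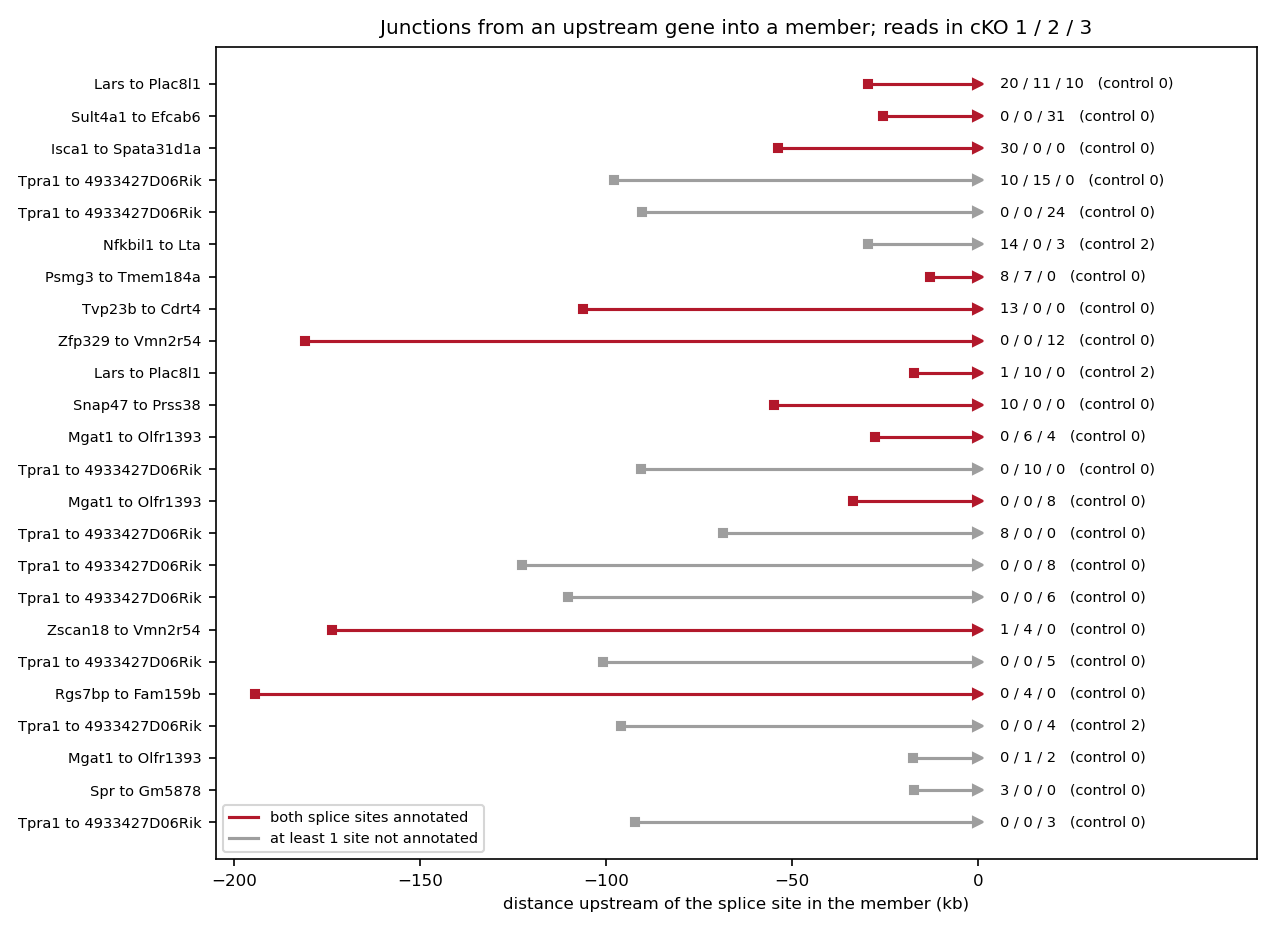
Junctions of at least 3 cKO reads from a gene of the count table into a member outside its family, drawn as distance in kb upstream of the splice site in the member (x axis); squares are the site in the upstream gene, arrowheads the site in the member, and the numbers are reads in cKO 1, 2 and 3 and in all control libraries. The Lars to Plac8l1 join at the top has 20, 11 and 10 reads, and most of the others have reads in a single cKO library.

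Chemosensory receptor genes had a mixed pattern. Olfr1393 and Olfr1392 lie 2513 bp apart on chromosome 11, downstream of Mgat1, which encodes a glycosyltransferase of the Golgi. Olfr1393 had 0, 4 and 0 counts in control and 54, 32 and 65 in cKO. Olfr1392 had 0, 1 and 0 in control and 144, 92 and 205 in cKO. Mgat1 was joined to Olfr1393 by 0, 6 and 4 reads at one donor and by 0, 0 and 8 at another, and Olfr1393 to Olfr1392 by 0, 0 and 7. Olfr1392 had 16, 15 and 47 reads on its own introns and none in control. Mgat1 was at 15.9 CPM ± 2.2 in control and 17.1 CPM ± 2.8 in cKO.

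Vmn2r54 had 0, 4 and 1 counts in control and 14, 12 and 35 in cKO, with 94 joining reads and 24 own-intron reads. It was joined to its neighbours Vmn2r56 by 0, 0 and 27 reads and Vmn2r55 by 2, 0 and 17, and to the zinc finger genes Zfp329 by 0, 0 and 12 and Zscan18 by 1, 4 and 0. The annotated acceptor was the same in all 4 cases. In cKO 3 the joining reads of Vmn2r54, 76, outnumbered its 35 counts, and its joins within the family are less certain. Vmn1r203 (76, 44 and 26 cKO counts), Vmn1r222 (32, 24 and 33) and Olfr70 (10, 41 and 95) had no spliced read of either kind, so their reads came without any junction.

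Most of the upstream genes joined to members did not pass the gene test. There were 13 such genes with counts, all of them tested, and 2 fell while none rose. Rgs7bp, a regulator of G protein signalling, fell from 892.1 CPM ± 125.8 to 598.4 CPM ± 7.2 (log2 change -0.58 ± 0.11 SE; adjusted p = 0.0094, edgeR), and Spr, the sepiapterin reductase of biopterin synthesis, fell from 19.3 CPM ± 1.5 to 11.2 CPM ± 1.4 (log2 change -0.78 ± 0.13 SE; adjusted p = 0.0064, edgeR). Their joins to Fam159b and Gm5878 had 4 and 3 reads. The median control level of the 13 was 19.3 CPM.

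The nearest upstream genes on the same strand were not chosen by their own counts and could be tested. Within 100 kb 59 members had such a neighbour, of which 3 are members themselves, and 47 others passed the count filter. Of these 5 rose (1700019G17Rik, Fam111a, Oasl2, Rdh9 and Spata31d1d) and 3 fell (Rgs7bp, Rhou and Spr), and the median log2 fold change was -0.03. Of all 16067 genes tested 4.03% rose and 3.85% fell. Among the neighbours that rose, Rdh9, Oasl2 and Spata31d1d are of the same gene family as the member they precede. Their counts may therefore not be independent of that member's counts. Leaving out 1 library gave 0 to 3 neighbours that rose and 1 to 3 that fell. Oasl2, 11006 bp before Oasl1, rose from 1.81 CPM ± 0.87 to 5.34 CPM ± 2.73 (log2 change 1.56 ± 0.41 SE; adjusted p = 0.044, edgeR), and Fam111a, before Gm4952, from 0.412 CPM ± 0.129 to 1.49 CPM ± 0.19 (log2 change 1.85 ± 0.43 SE; adjusted p = 0.028, edgeR). A neighbour at 1 CPM or more was present for 47.5% of the placed members, 43.5% of genes with like counts and 37.3% of all placed genes.

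Joins between genes were more common in cKO beyond the members. Junctions of at least 3 reads whose ends lie in 2 different genes on the same strand, members left out, came to 1118, 1129 and 1171 in the controls, while cKO 1, 2 and 3 had 2091, 1935 and 1962. The means were 1139 ± 28.0 and 1996 ± 83.4 (SD, n = 3), a ratio of 1.75 with no overlap. As a share of all junctions with at least 3 reads this was 0.597% ± 0.014 in control and 0.927% ± 0.015 in cKO. The exact permutation test over libraries, two-sided, gave p = 0.1 for both, which is the smallest p that 3 against 3 libraries allow. The total of junction reads was 73796963 to 78104343 per control library and 73457422 to 83976095 per cKO library.

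**Figure D5:**
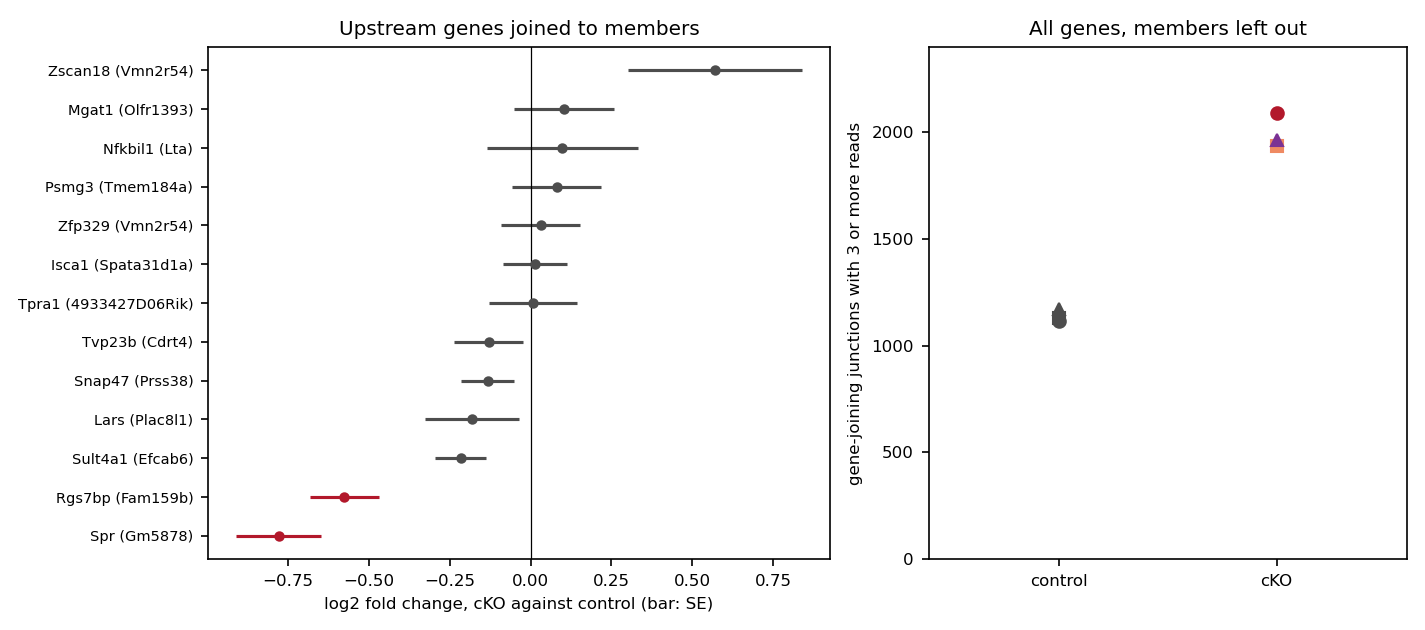
Left, log2 fold change of the 13 upstream genes joined to members (points, with SE bars; red where the adjusted p is under 0.05), with the member in brackets; right, number of gene-joining junctions with at least 3 reads in each library, members left out (circle, square and triangle for replicates 1, 2 and 3). Rgs7bp and Spr lie lowest on the left, and the 3 cKO libraries on the right lie between 1935 and 2091, above the control libraries at 1118 to 1171.

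Among the non-coding members, 9 of 13 long non-coding RNAs had at least 3 reads on their own introns. 4930524C18Rik had 0, 2 and 0 counts in control and 92, 40 and 124 in cKO, with 10, 15 and 14 own-intron reads, none in control, and no upstream neighbour within 100 kb. More of its spliced reads, 41, 0 and 92 in cKO and 0 in control, lay on unannotated junctions inside the gene. Such junctions of at least 3 cKO reads were found in 17 members. 4933405D12Rik, near the threshold with 11, 10 and 20 cKO counts, had 15, 12 and 19 own-intron reads. A230108P19Rik overlaps Echdc3 on the other strand, where 272 junction reads lay in cKO, and its values are uncertain. The strongest junction of that strand had 106 reads in cKO and 78 in control. BB123696 had 25, 34 and 25 counts and no read on its 3 introns. B230216N24Rik and Gm20172 lie inside the genes Pam and Bai3 on the same strand, so unspliced reads of the host cannot be told from theirs.

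All 5 microRNA loci and Snora64 lie inside a host transcript on the same strand. Mir181a-1 and Mir181b-1, whose seeds are shown above, are 98 bp apart in Gm4258 and had 93, 32 and 29 and 135, 46 and 10 counts in cKO, with 0 in control. The annotated introns of Gm4258 carried 89, 108 and 93 reads in control and 320, 251 and 269 in cKO. A junction of 8, 11 and 0 reads in cKO, absent in control, ended at the first bases of the Mir181a-1 hairpin. The introns of Mir9-3hg, around Mir9-3, carried 225, 253 and 198 reads in control and 968, 542 and 676 in cKO. Both hosts thus had more spliced reads in every cKO library, while those of Mir3081 and Snora64 overlapped between the groups (Boc 2816 to 4234 and 2967 to 3865; Rps2 9313 to 10795 and 8395 to 10980). For Mir339 the host 3110082I17Rik had 55 to 76 reads in control and 83 to 125 in cKO, and did not pass the gene test (log2 change 0.59 ± 0.23 SE; adjusted p = 0.16, edgeR).

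For 18 members no spliced read of either kind reached 3. Of these 7 have no annotated intron, and 11 do. Gm5779, a pseudogene, had the most raw counts among them, with 1, 1 and 3 counts in control and 141, 92 and 156 in cKO. None of its 4 introns was read, and the 33 junction reads at its locus lay on the other strand, where it overlaps Gucd1. They fell on junctions with 3, 3 and 7 and with 3, 8 and 9 reads in cKO and none in control. 4931417G12Rik (now Fancd2os) had 14, 60 and 16 counts and overlaps Fancd2 on the other strand. Whether such reads came from an own unspliced transcript, from a neighbour or from the other strand was not tested.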

How the data were processed

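The authors deposited raw counts of reads per gene for 6 libraries in a single table and, for each library, a list of splice junctions with counts of the spanning reads, per the file headers. The submitters' processing notes name TopHat2 2.1.0, HTSeq 0.6.0 and the build mm10. Annotation, strand setting and treatment of multiply aligned reads were not given in the sources used here. Names turned into dates were found in 27 rows. Rows were matched to GENCODE M21 by symbol, which placed 80 members, 8 of them through an older symbol.

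The gene test was edgeR's quasi-likelihood test (edgeR 4.0.16, R 4.3.3; filterByExpr, TMM, all 6 libraries, no covariate), with Benjamini-Hochberg adjustment over all genes tested and a threshold of 0.05. CPM values use TMM library sizes. The test was tried on simulated data. A member was called spliced or joined from 3 cKO reads. DESeq2 1.42.0 and the replicate number as a block were alternatives.

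The members, gene lists and thresholds were chosen with earlier results of these data known. Members named are the 10 with the highest cKO CPM, the 10 with the most own-intron reads and the 10 with the most joining reads, the 3 widest and 3 narrowest in CV from a mean of 30 counts, those at the thresholds, those on a fixed list, and their neighbours. Any other was chosen after its values were seen. p-values from edgeR weigh the difference between the groups against the spread between these libraries.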

Additional observations from a re-analysis of the deposited data

How the results depend on the processing

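The thresholds set the number of members. It was 53 with 5 or fewer control counts, 164 with 20 or fewer, 149 with 5 or more counts per cKO library and 39 with 20 or more, and 113 to 157 when 1 library was left out. The exchanged rule gave 2, 26, 23 and 0 genes under the same changes. Without 1 library it gave 17 to 27, a check chosen after seeing the data. The thresholds are easier to meet over fewer libraries, so leaving out a library could only raise these numbers. With counts scaled to TMM library sizes there were 67 members, and 9 genes under the exchanged rule. Own-intron reads were found for 52 to 55 members without 1 cKO library, and joins for 15 to 17, or 29 from 1 read. Leaving out a library could only lower these counts, since reads are summed over libraries. Leaving out partners of the same family or genes that contain the member, both added after seeing the data, gave 15 and 18. Across the table DESeq2 called 1071 genes up and 1036 down, and leaving out 1 library gave 264 to 501 up and 238 to 555 down. Neighbours that rose numbered 0 to 3 and those that fell 1 to 3 without 1 library, and 1 fell within 50 kb. In each case the cause was not tested. With the replicate number as a block 814 genes were up and 920 down, against 647 and 618, and 4 neighbours rose and 3 fell. Same-numbered libraries did not deviate together (correlations 0.045, -0.062 and 0.021), so they share only a number. At 10 to 30 counts a library, a missing junction is not evidence that a gene is unspliced.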
